A study of Mus musculus with 18 samples.

Results

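The genes described here are 10 members of the heat shock chaperone system: Hspa1a, Hspa1b, Hsph1, Dnajb1, Hspb1, Hspa8, Hsp90aa1, Hsp90ab1, Hspa5 and their regulator Hsf1. They were taken by symbol, from a list chosen with earlier results of these data known. All 10 were found among the 23235 gene symbols of the deposited tables. RNA-seq was run on microdissected arcuate nucleus of ovariectomized C57/BL female mice, the hypothalamic nucleus that holds kisspeptin, POMC and AgRP neurons. Females were wild type (WT), ERα KIKO or ERα KO (ERKO), and each genotype was given oil or estradiol benzoate (E2), which makes 6 groups of 3 libraries. The E2 groups received 250 ng on day 5 after ovariectomy and 1500 ng on day 6, the oil groups received oil on both days, and all females were killed 24 h after the later injection, having been fasted for 1 h. In the field's usual sense ERKO mice lack functional estrogen receptor α, and KIKO mice carry a knocked-in receptor that cannot bind estrogen response elements over a null allele, but the labels do not say how either allele was built. Age, the number of animals per library and whether replicates came from separate animals are not given in the sources used here, so each p-value measures the spread between these libraries, which may be technical. The comparisons below ask whether E2 moved the chaperones in each genotype, whether a mutant differed from WT under the same treatment, and whether the E2 response itself differed between genotypes.

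Heat shock proteins hold unfolded proteins in a folding-competent state and return them to their native form. Under proteotoxic stress the transcription factor HSF1, held inactive by chaperones in resting cells, forms trimers, binds heat shock elements made of inverted nGAAn units and drives inducible genes such as Hspa1a, Hspa1b, Dnajb1 and Hspb1. Cells also keep a large constitutive pool of HSC70 (Hspa8) and HSP90. The HSP90 gene Hsp90ab1 is constitutive, while Hsp90aa1 is also induced by stress. In unliganded steroid receptors, estrogen receptor α among them, HSP90 keeps the ligand-binding domain ready for hormone. Hspa5 encodes BiP, the HSP70 of the endoplasmic reticulum, and is a target of the unfolded protein response rather than of HSF1.

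The RefSeq promoter table (build GRCm38.p6) held 6 of the 10 members, Hspa1a, Hspa1b, Hsph1, Dnajb1, Hspb1 and Hspa5; Hspa8, Hsp90aa1, Hsp90ab1 and Hsf1 had no entry. The 250 bases before the transcription start are printed for 5 of them, 5′ to 3′ on the gene's own strand, because the first 4 are the stress-inducible members described in most detail and Hspa5 belongs to the other stress pathway. Capitals mark a pair of heat shock units, GAANNTTC or TTCNNGAA, or in Hspa5 the endoplasmic reticulum stress element CCAAT, any 9 bases, CCACG; the positions given further on count back from −1, the base just before the start.
Hspa1a, chr17:34972157-34972406, minus strand: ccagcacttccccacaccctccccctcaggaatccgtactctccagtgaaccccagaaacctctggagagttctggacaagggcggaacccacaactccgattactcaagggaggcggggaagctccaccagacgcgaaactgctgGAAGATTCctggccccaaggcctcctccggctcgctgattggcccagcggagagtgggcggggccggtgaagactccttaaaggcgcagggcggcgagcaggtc
Hspa1b, chr17:34959239-34959488, minus strand: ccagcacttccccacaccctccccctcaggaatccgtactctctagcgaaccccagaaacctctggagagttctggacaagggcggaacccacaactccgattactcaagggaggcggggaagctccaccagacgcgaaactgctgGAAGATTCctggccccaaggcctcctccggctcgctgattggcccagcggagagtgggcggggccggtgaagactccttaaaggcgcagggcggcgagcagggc
Hspb1, chr5:135887669-135887918, plus strand: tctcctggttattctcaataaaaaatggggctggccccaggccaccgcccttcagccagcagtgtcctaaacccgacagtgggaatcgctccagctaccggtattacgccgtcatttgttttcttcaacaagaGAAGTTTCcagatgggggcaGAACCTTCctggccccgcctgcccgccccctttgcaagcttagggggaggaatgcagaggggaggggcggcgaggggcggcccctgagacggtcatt
Dnajb1, chr8:83607925-83608174, plus strand: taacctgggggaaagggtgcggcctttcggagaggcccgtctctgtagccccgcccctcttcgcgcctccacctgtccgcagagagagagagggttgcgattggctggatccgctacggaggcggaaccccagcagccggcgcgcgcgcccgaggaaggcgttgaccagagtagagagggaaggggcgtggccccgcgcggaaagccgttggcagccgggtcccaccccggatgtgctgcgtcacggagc
Hspa5, chr2:34771840-34772089, plus strand: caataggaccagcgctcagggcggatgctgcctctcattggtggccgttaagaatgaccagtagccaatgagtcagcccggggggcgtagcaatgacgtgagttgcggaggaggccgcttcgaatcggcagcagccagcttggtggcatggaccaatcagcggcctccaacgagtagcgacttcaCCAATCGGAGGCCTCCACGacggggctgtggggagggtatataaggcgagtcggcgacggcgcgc

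The Hspa1a and Hspa1b stretches differed at 3 of 250 bases and both held GAAGATTC at −104 to −97. Hspb1 held 2 pairs, GAAGTTTC at −117 to −110 and GAACCTTC at −97 to −90, and Hsph1, not printed, held TTCTCGAA at −33 to −26. Dnajb1 had no such letters in this window, but the stretch before its other listed start was not searched. Hspa5 held the stress element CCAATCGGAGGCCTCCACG at −65 to −47. Both strands were searched, and only the 5′-most listed start of each gene was used. Dnajb1 and Hsph1 each had 2 listed starts. Of 27025 promoters of the same length, 6.79% held GAANNTTC, 7.18% held TTCNNGAA and 13.0% held either pair, against 4 of the 6 members. Of the same promoters, 0.403% held 3 consecutive units (GAANNTTC, any 2 bases, GAA), 0.122% held the endoplasmic reticulum stress element, and 0.0629% held the estrogen response element (GGTCA, any 3 bases, TGACC), which was found in none of the 6. A match of letters is a description and no evidence of binding.

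Values are FPKM (a count of fragments divided by transcript length and by the size of the library) as deposited, so levels can be set side by side between genes. The targeted gene, Esr1, lay at 5.38 to 11.9 FPKM in WT oil, 3.45 to 5.88 in WT E2, 2.85 to 4.08 in the KIKO libraries and 0.212 to 2.39 in the ERKO libraries, below every WT library in ERKO; which exons remain in the mutants is not given. All 11 arcuate neuron markers fixed for the check, Kiss1, Pomc, Agrp and Npy among them, were found. None of them was at 0 in all 3 libraries of a group. The words none at 0 have this meaning for the marker lists below. ERKO E2 replicate 3 stood apart from the rest. Its deposited FPKM summed to 623297, against 416125 to 486221 in the other 17 libraries, its correlations with them ran from 0.914 to 0.947, where the other 17 correlated at 0.956 or more, and its paraventricular and supraoptic marker sum (Avp, Oxt, Crh, Sim1) was 20501 FPKM, with 4942 and 5333 in the other ERKO E2 libraries. Values without that library stand beside the main ERKO E2 results. In bulk tissue, fewer cells of a type and less RNA per cell cannot be told apart.

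Hsp90ab1, Hspa8 and Hsp90aa1 were among the most abundant mRNAs of the arcuate nucleus, and the inducible HSP70s were expressed at far lower levels. By mean FPKM over 18 libraries, Hsp90ab1 stood at 860 (place 29 of 23235 symbols), Hspa8 at 750 (place 38), Hsp90aa1 at 278, Hspa5 at 223, Hsph1 at 148, Dnajb1 at 54.6, Hsf1 at 34.3, Hspb1 at 14.9, Hspa1a at 11.4 and Hspa1b at 8.24. The 3 lowest members varied most. The highest library exceeded the lowest by 3.68 times for Hspa1b, 3.55 for Hspb1 and 2.74 for Hspa1a, by 1.93 for Hsp90aa1, 1.81 for Dnajb1 and 1.76 for Hspa8, and by 1.22 to 1.46 times for Hsp90ab1, Hsph1, Hsf1 and Hspa5. If the deposited bounds are those of a fragment count, they stand for 256 to 963 fragments per library for Hspa1a, 157 to 763 for Hspa1b, 71 to 356 for Hspb1 and 1314 to 3194 for Dnajb1, so Hspb1 rests on the fewest fragments of these 4. Such counts came out whole (within 0.05) in 18 of 18 libraries for Dnajb1 and for Hspb1, but in 2 of 18 for Hspa1a and in 2 of 18 for Hspa1b. This was not particular to the pair: they were whole in 16 of 18 for Hsf1 but in 1 or 2 of 18 for Hsph1, Hspa8, Hsp90aa1, Hsp90ab1 and Hspa5.

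**Figure D1:**
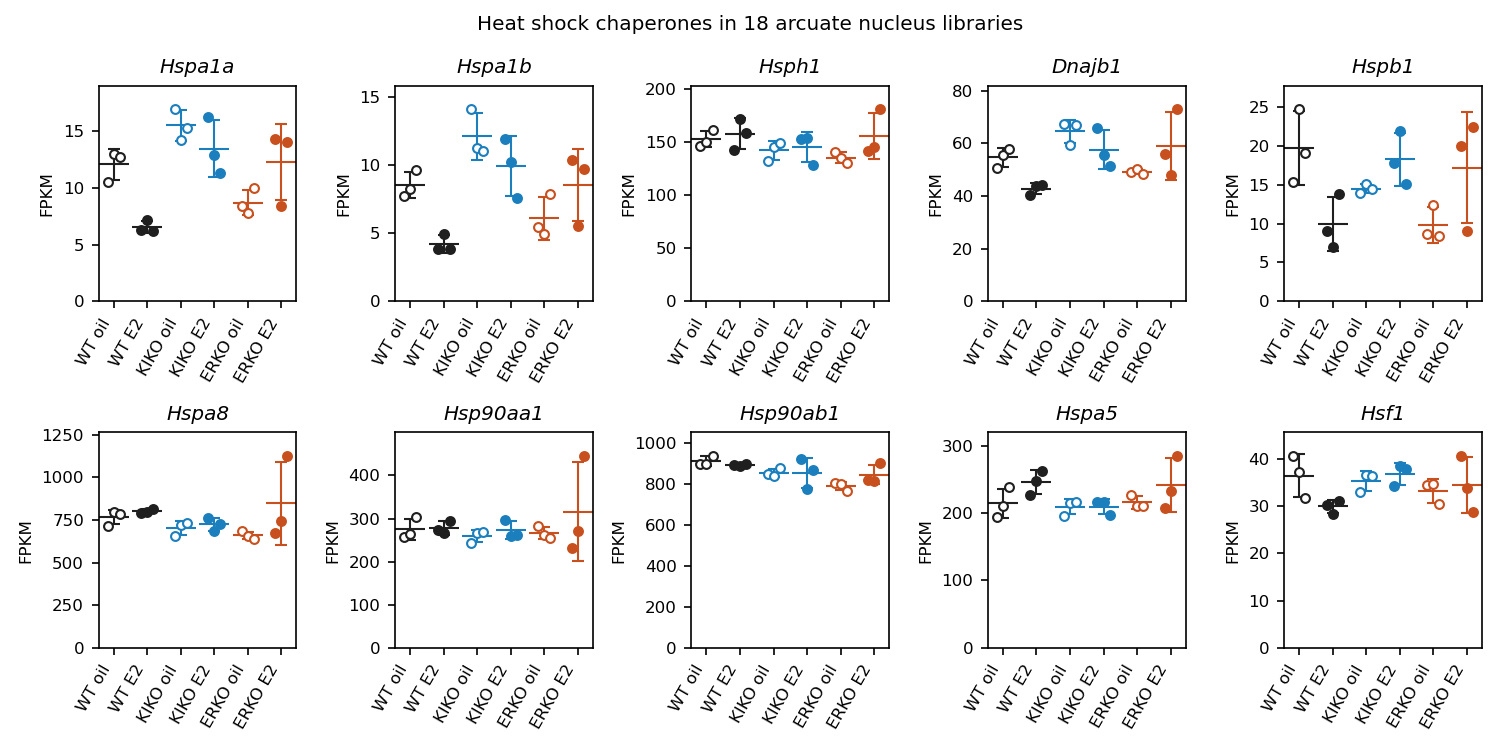
FPKM of the 10 genes (vertical axis, from 0, a separate scale per gene) in 6 groups of 3 libraries; points are libraries (open for oil, filled for E2), and bars are the group mean and SD. WT E2 is the lowest group for Hspa1a, Hspa1b, Dnajb1 and Hsf1, and 1 ERKO E2 library is the highest point for Hspa8, Hsp90aa1, Hspa5, Hsph1 and Dnajb1.

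E2 lowered Hspa1a in WT females, and Hspb1, Dnajb1 and Hspa1b lay lower too without passing the test. Hspa1a, the stress-inducible cytosolic HSP70, read 10.5, 13.0 and 12.7 FPKM across WT oil and 6.27, 7.17 and 6.19 across WT E2. No E2 library reached the lowest oil library, and the mean fell from 12.1 ± 1.38 to 6.54 ± 0.548 FPKM (SD, n = 3 each). The log2 change of FPKM + 1 was −0.79 ± 0.17 (SE; limma, Benjamini-Hochberg adjusted p = 0.0438 over 14831 genes). It was the single member called of 10, where 0.802% of all genes tested were called and 0.189% were called lower. Hspa1b, its neighbouring near-copy on chromosome 17, went from 7.77, 8.26 and 9.61 FPKM to 3.84, 4.95 and 3.84, also with no overlap; its log2 change of −0.88 ± 0.21 missed the threshold (adjusted p = 0.0772). This pair has to be read with care: 58.8% of the 50-base windows of the Hspa1a transcript occur exactly in Hspa1b, and the files do not say how such reads were shared out, so the split between the copies is uncertain. Summed to 1 entry, the pair fell by 0.88 on the log2 scale (adjusted p = 0.0455), from 20.6 ± 2.11 to 10.8 ± 1.19 FPKM.

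The partner and client-binding members showed the same order in WT. Dnajb1, the HSP40 that delivers clients to HSP70 and stimulates its ATPase, was at 50.6, 55.7 and 57.7 FPKM in oil and 40.3, 43.8 and 44.1 in E2 (log2 change −0.35 ± 0.13, adjusted p = 0.319). Hspb1, the small heat shock protein HSP27 that holds unfolded clients without ATP, was at 15.4, 24.7 and 19.0 FPKM in oil and 9.00, 6.96 and 13.8 in E2, a ratio of means of 0.503 with a wide error (−0.95 ± 0.29, adjusted p = 0.186). Neither passed the test, although their groups did not overlap. Hsph1, the HSP110 nucleotide exchange factor for HSP70, did not show this order, with 147 to 162 FPKM in oil and 143 to 172 in E2 (0.04 ± 0.11, 95% interval −0.20 to 0.28).

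Among the abundant members Hspa8, Hsp90aa1, Hsp90ab1 and Hspa5, differences in WT were small. Hspa8 was at 717, 795 and 786 FPKM in oil and 790, 796 and 813 in E2 (0.06 ± 0.15), Hsp90aa1 had a log2 change of 0.02 ± 0.18 and Hsp90ab1 of −0.03 ± 0.10. Hspa5 averaged 214 ± 21.9 FPKM in oil and 246 ± 17.8 in E2, with overlapping groups (0.20 ± 0.12, adjusted p = 0.633). Hsf1 itself, measured as mRNA and not as activity, was at 40.6, 37.1 and 31.6 FPKM in oil and 30.3, 28.3 and 31.0 in E2, again without overlap and without passing (−0.27 ± 0.12, adjusted p = 0.430). In all, 6 of the 10 members lay lower in E2 without overlap and 0 lay higher. The 6th was Hsp90ab1, whose highest E2 library (900.6 FPKM) nearly met the lowest oil library (900.8) and whose sign turned in 1 of 28 alternative settings. Of all genes tested, 6.44% lay lower without overlap and 9.35% higher, and the members' median change was −0.15 against 0.01 over all genes.

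The Hspa1a call in WT was a narrow one. It held in 12 of 28 alternative settings and was lost without any 1 of the 6 WT libraries, without any KIKO oil or ERKO oil library, and without KIKO E2 replicate 2 or 3 (adjusted p between 0.051 and 0.169, log2 change between −0.74 and −0.88). Hspa1b passed instead of missing without ERKO E2 replicate 2 (adjusted p = 0.0245) or without ERKO E2 replicate 3 (adjusted p = 0.0274), at the same log2 change, in fits that called 0.862% and 2.65% of all genes. Beside these values, the summed arcuate neuron markers (11 of 11 found, none at 0) were at 6122 to 7431 FPKM in WT oil and 4319 to 5270 in WT E2, and the ventromedial nucleus markers (5 of 5 found, none at 0) at 24.2 to 25.3 and 13.5 to 23.2; their part in the chaperone values was not tested.

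In the mutants no member was called with E2. In KIKO, Hspa1a was at 17.0, 14.3 and 15.3 FPKM in oil and 16.2, 12.9 and 11.3 in E2, and Hspa1b at 14.1, 11.3 and 11.0 and at 11.9, 10.3 and 7.60, so both pairs of groups overlapped. Their log2 changes, −0.20 ± 0.17 (95% interval −0.57 to 0.17) and −0.28 ± 0.21 (−0.73 to 0.17), had an adjusted p of 1. limma called 0 of 10 members, and 0 had an unadjusted p under 0.05; 0.00674% of all genes, a single gene, were called. Hspb1 lay higher, from 13.9, 15.1 and 14.5 FPKM in oil to 17.7, 21.9 and 15.1 in E2, groups that missed overlapping by a small gap (0.30 ± 0.29), where 4.55% of all genes lay higher without overlap. The other members had log2 changes between −0.17 (Dnajb1) and 0.07 (Hsp90aa1).

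In ERKO, all 10 members had positive estimates with E2, 5 of which turned negative under quantile normalization. None was called, and 0.0% of all genes were called. An unadjusted p under 0.05 was found for 3 members and for 7.19% of all genes. Hspa1a was at 8.42, 7.77 and 9.96 FPKM in oil and 14.3, 8.42 and 14.1 in E2; replicates 1 and 3 lay above every oil library and replicate 2 lay among them (0.42 ± 0.17, adjusted p = 0.475). Hspb1 had the same arrangement, 8.68, 12.4 and 8.36 FPKM in oil and 20.0, 9.04 and 22.5 in E2 (0.67 ± 0.29, adjusted p = 0.475). So did Hspa1b, with 5.47, 4.94 and 7.90 in oil and 10.4, 5.51 and 9.71 in E2. Dnajb1, at 49.3, 50.3 and 48.3 in oil and 56.0, 47.9 and 73.0 in E2, again had replicate 2 below and replicates 1 and 3 above the oil libraries. Without ERKO E2 replicate 2 the estimates were 0.65 for Hspa1a, 0.66 for Hspa1b and 1.05 for Hspb1, and still none passed (adjusted p = 0.141 for each). Without ERKO E2 replicate 3 they were 0.31, 0.30 and 0.44, and 0.07 for Dnajb1 against 0.23 with all libraries (adjusted p = 1 for each). Without ERKO E2 replicate 1 the estimates were 0.30, 0.26 and 0.52.

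The abundant members in ERKO E2 rested on the library that stood apart. Hspa8 was at 684, 654 and 640 FPKM in ERKO oil and at 675, 743 and 1127 in ERKO E2, where 1127 was the highest value of all 18 libraries. Hsp90aa1 was at 283, 263 and 255 FPKM in oil and at 232, 271 and 446 in E2, and Hspa5 at 227, 210 and 211 and at 207, 233 and 285, again with replicate 3 on top. Without replicate 3, the Hspa8 estimate went from 0.33 ± 0.15 to 0.10 ± 0.08, Hsp90aa1 from 0.19 to −0.09, Hspa5 from 0.15 to 0.03 and Hsph1 from 0.20 to 0.09. Under quantile normalization, which gives every library the same distribution, the sign turned for Hspa8 (−0.02), Hsp90aa1 (−0.10), Hsp90ab1 (−0.30), Hspa5 (−0.14) and Hsph1 (−0.04), so no direction is given for these in ERKO. The members' median of 0.21, against −0.03 over all genes, was 0.09 without that library and −0.01 under quantile normalization.

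**Figure D2:**
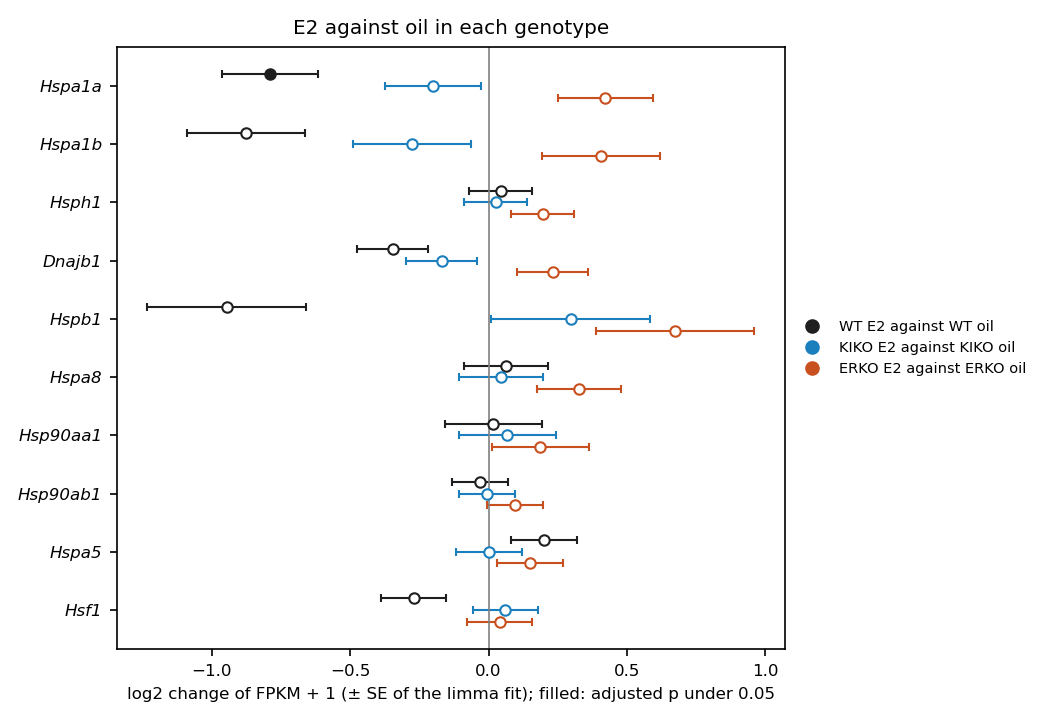
Log2 change of FPKM + 1 with E2 (horizontal axis; bars are the standard error) for each gene in WT (black), KIKO (blue) and ERKO (orange); a filled point has an adjusted p under 0.05. Hspa1a in WT, at −0.79, is the single filled point, and for Hspa1a, Hspa1b, Dnajb1 and Hspb1 the WT estimate is negative while the ERKO estimate is positive.

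The E2 responses of the inducible members were then compared between genotypes by an interaction term. For ERKO minus WT, Hspa1a differed by 1.21 ± 0.24 (95% interval 0.69 to 1.73), just outside the threshold (adjusted p = 0.0542), Hspa1b by 1.28 ± 0.30 (0.106), Hspb1 by 1.62 ± 0.41 (0.127) and Dnajb1 by 0.58 ± 0.18 (0.234), where the number in parentheses after each SE is the adjusted p. No member was called, where 0.276% of all genes were called. The unadjusted p was under 0.05 for 4 members and for 12.7% of all genes. The outcome turned on ERKO E2 replicate 2, the library in which the inducible members were low. Without it, with 0.674% of all genes called, Hspa1a (1.44, adjusted p = 0.00301), Hspa1b (1.54, adjusted p = 0.0187) and Hspb1 (2.00, adjusted p = 0.0154) passed, and without ERKO E2 replicate 3 none did (Hspa1a 1.10, adjusted p = 0.0577). For KIKO minus WT, no member was called, where 0.135% of all genes were called. The unadjusted p was under 0.05 for 2 members and for 4.92% of all genes. The 2 members were Hspb1, at 1.24 ± 0.41 (adjusted p = 0.639), and Hspa1a, at 0.59 ± 0.24 (adjusted p = 0.905). KIKO and ERKO responses differed by −0.62 ± 0.24 for Hspa1a (adjusted p = 0.746, and −0.51 without ERKO E2 replicate 3). In that contrast 0 members and 0.0% of all genes were called, with 3 members and 2.20% of all genes at an unadjusted p under 0.05. All of these contrasts share the WT, KIKO or ERKO libraries already described.

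Under E2, Hspa1a was higher in both mutants than in WT and Hspa1b was higher in KIKO, which makes 3 of the 4 calls among the members. In KIKO E2 against WT E2, Hspa1a rose from 6.54 ± 0.548 to 13.5 ± 2.49 FPKM (log2 0.93 ± 0.17, adjusted p = 0.0143, ratio of means 2.06) and Hspa1b from 4.21 ± 0.639 to 9.93 ± 2.18 (1.06 ± 0.21, adjusted p = 0.0260, ratio 2.36). Every KIKO E2 library exceeded every WT E2 library for both. These 2 of 10 members were called, where 0.944% of all genes were called and 0.202% were called higher. Dnajb1 (0.41 ± 0.13, adjusted p = 0.215), Hspb1 (0.85 ± 0.29, adjusted p = 0.280) and Hsf1 (0.29 ± 0.12, adjusted p = 0.437) also lay higher without overlap and did not pass. Of all genes, 11.4% lay higher without overlap and 10.5% lower. Hspa8 (−0.14 ± 0.15) and Hspa5 (−0.23 ± 0.12) lay lower without overlap and were not called, and the Hspa8 sign turned in 1 of 28 alternative settings. Dnajb1 passed without ERKO E2 replicate 3 (adjusted p = 0.0177), where 3.98% of all genes were called. Both HSP70 calls held in 23 of 28 alternative settings. They were lost without any WT E2 library and without KIKO E2 replicate 1 or 2 (adjusted p from 0.0514 to 0.0919 for Hspa1a and from 0.0590 to 0.146 for Hspa1b).

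In ERKO E2 against WT E2, Hspa1a rose to 12.3 ± 3.34 FPKM (0.78 ± 0.17, adjusted p = 0.0378, ratio of means 1.88), the single member called where 1.3% of all genes were called and 0.276% were called higher. All 3 ERKO E2 libraries lay above the WT E2 libraries, the closest at 8.42 FPKM against 7.17. Hspa1b (0.84 ± 0.21, adjusted p = 0.0751) and Dnajb1 (0.43 ± 0.13, adjusted p = 0.145) lay higher without overlap, where 4.71% of all genes did, and did not pass. Hspb1 overlapped (0.69 ± 0.29, adjusted p = 0.362). Without ERKO E2 replicate 3 the Hspa1a call held (0.68, adjusted p = 0.0302), while Hspa1b was at 0.73, Dnajb1 at 0.27 and Hspb1 at 0.46, none of them called. Without replicate 2 the call was joined by Hspa1b (adjusted p = 0.0103), Dnajb1 (0.57, adjusted p = 0.0298) and Hspb1 (1.07, adjusted p = 0.0360). The fits without replicate 3 and without replicate 2 called 8.61% and 1.85% of all genes. The Hspa1a call was lost without ERKO E2 replicate 1, any WT E2 library, any KIKO oil library, KIKO E2 replicate 2 or ERKO oil replicate 1 or 2 (adjusted p from 0.0528 to 0.142), and a fit of these groups alone gave an adjusted p of 0.720. These comparisons share the WT E2 libraries with each other and with the WT test of E2, so the low WT E2 values enter all 3. Beside them, the endothelial and mural markers (7 of 7 found, none at 0) summed to 79.6 to 96.7 FPKM in WT E2, 56.4 to 70.9 in KIKO E2 and 49.5 to 72.9 in ERKO E2, and the ventromedial markers to 13.5 to 23.2, 24.1 to 41.3 and 18.8 to 29.8; their part was not tested.

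Under oil the HSP70 pair had estimates above 0 in KIKO and below 0 in ERKO against WT, without a call in either. In KIKO oil, Hspa1a (0.34 ± 0.17, adjusted p = 0.535), Hspa1b (0.46 ± 0.21, adjusted p = 0.488) and Dnajb1 (0.24 ± 0.13, adjusted p = 0.565) lay above every WT oil library, while Hspb1 (−0.39 ± 0.29) and Hsp90ab1 (−0.09 ± 0.10) lay below. limma called 0 of 10 members, where 0.0135% of all genes were called. A single member, 1 of 10, had an unadjusted p under 0.05, as 10.1% of all genes did. The 3 members lying above compare with 12.5% of all genes, and the 2 below with 9.32%. In ERKO oil, 6 members lay below every WT oil library, Hspa1a (−0.43 ± 0.17, adjusted p = 0.171), Hsph1, Dnajb1, Hspb1, Hspa8 and Hsp90ab1. In that comparison 18.4% of all genes lay below and 39.1% lay on either side. Hspb1 had the largest of these changes, from 19.7 ± 4.71 to 9.83 ± 2.27 FPKM (−0.93 ± 0.29, adjusted p = 0.0959). Hspa1b overlapped WT oil in ERKO oil (−0.44 ± 0.21, adjusted p = 0.238). None of the 10 was called, where 1.44% of all genes were called. An unadjusted p under 0.05 was found for 2 members, near the 21.7% of all genes. Hspb1 passed without ERKO E2 replicate 2 (adjusted p = 0.0471) and, with Hspa8 (−0.22, adjusted p = 0.0441) and Hsp90ab1 (−0.21, adjusted p = 0.0408), without ERKO E2 replicate 3. Those fits called 1.79% and 22.2% of all genes, so 3 of 10 members in the latter lies near the share of all genes. The direction of the abundant members depended on scaling here, since quantile normalization turned Hspa8 to 0.14, Hsp90ab1 to 0.12 and Hsph1 to 0.02, while Hspb1 stayed at −0.98 and Hspa1a at −0.51. Several marker sums were also lower in ERKO oil, with no overlap with WT oil. Arcuate neuron markers summed to 3928 to 3988 FPKM against 6122 to 7431. Oligodendrocyte markers (7 of 7 found, none at 0) summed to 1167 to 1342 against 1405 to 1890, and those of their precursors (4 of 4, none at 0) to 86.6 to 87.9 against 111 to 133. Astrocyte markers (6 of 6, none at 0) summed to 607 to 673 against 675 to 869. Paraventricular and supraoptic markers (4 of 4, with 1 at 0 throughout WT oil) summed to 1743 to 4294 against 4448 to 7266. Their sum in KIKO oil was 2634 to 4347. Blood markers (3 of 5 found, none at 0) summed to 213.2 to 283.4 against 283.7 to 1073.9, a small gap. The general neuron markers (7 of 7, none at 0) overlapped, at 957 to 1020 against 968 to 1022. In KIKO oil the arcuate sum was 4294 to 5343 FPKM, the oligodendrocyte sum 1257 to 1361 and the precursor sum 91.4 to 95.9, all below WT oil as well. The microglia sum (7 of 7, none at 0) was 81.2 to 102 in KIKO oil against 111 to 128 in WT oil. The part of these cells in the chaperone values was not tested.

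**Figure D3:**
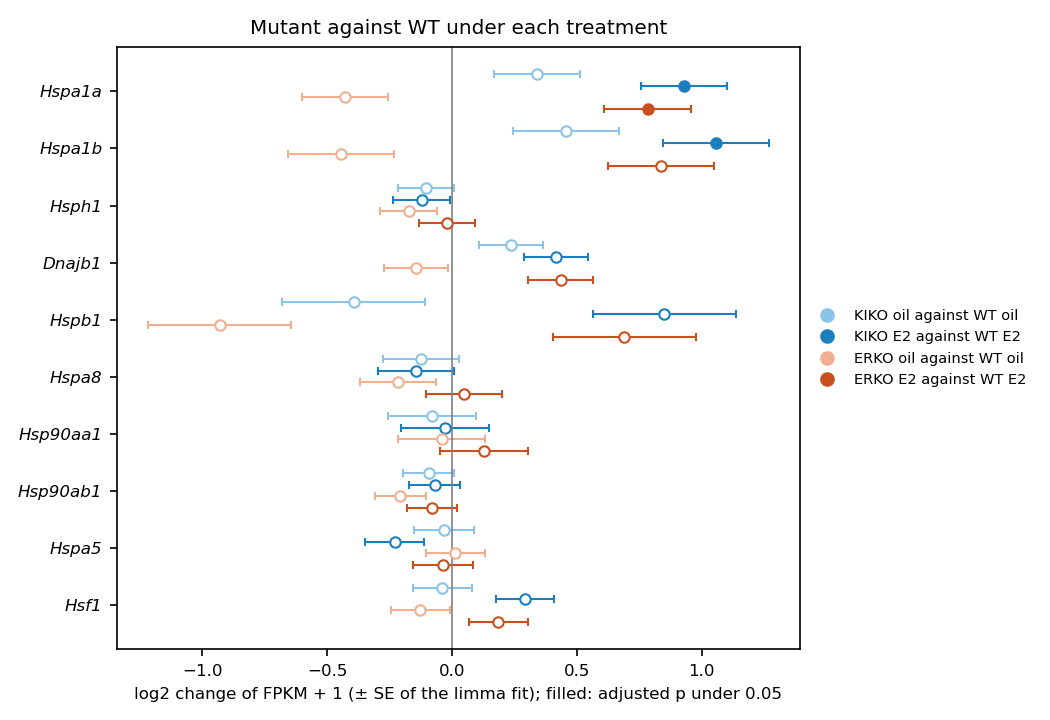
Log2 difference of FPKM + 1 between each mutant and WT (horizontal axis; bars are the standard error) under oil (pale) and E2 (dark), with KIKO in blue and ERKO in orange; a filled point has an adjusted p under 0.05. The filled points are Hspa1a in both E2 comparisons (0.93 and 0.78) and Hspa1b in KIKO E2 (1.06); under oil the KIKO points of the HSP70 pair lie right of 0 and the ERKO points left of it.

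Put in order of mean level, Hspa1a ran from KIKO oil (15.5 ± 1.36 FPKM) through KIKO E2 (13.5), ERKO E2 (12.3) and WT oil (12.1) to ERKO oil (8.72) and WT E2 (6.54). The gaps among the first 4 groups were smaller than the larger SD of the neighbours, and the last 2 steps exceeded it. WT E2 was also the lowest group for Hspa1b, Dnajb1 and Hsf1 (29.9 ± 1.40 FPKM for Hsf1). ERKO oil was the lowest for Hspb1, where it differed from WT E2 by less than the spread. The ratio of Hspa1a to Hspa1b FPKM lay between 1.20 and 1.63 in every library. Much of their transcripts is identical and how shared reads were assigned is not given, so their agreement may be partly fixed by those reads. Dnajb1, on chromosome 8, followed nearly the same order of libraries (Pearson r of log2 values 0.91 with Hspa1a over 18 libraries, 0.95 without ERKO E2 replicate 3), and Hspb1 did so more loosely (0.68). Hspa8 (−0.01, and −0.29 without ERKO E2 replicate 3) and Hsp90aa1 (0.05, and −0.26 without it) did not follow Hspa1a. Neither did Hsp90ab1 (0.09, and 0.05 without it) or Hsph1 (−0.01 and −0.15). Hspa5 had a negative correlation with Hspa1a (−0.34 and −0.59), and Hsf1 a positive one (0.40 and 0.53). These correlations describe libraries that share groups and scaling, and no test is attached.

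**Figure D4:**
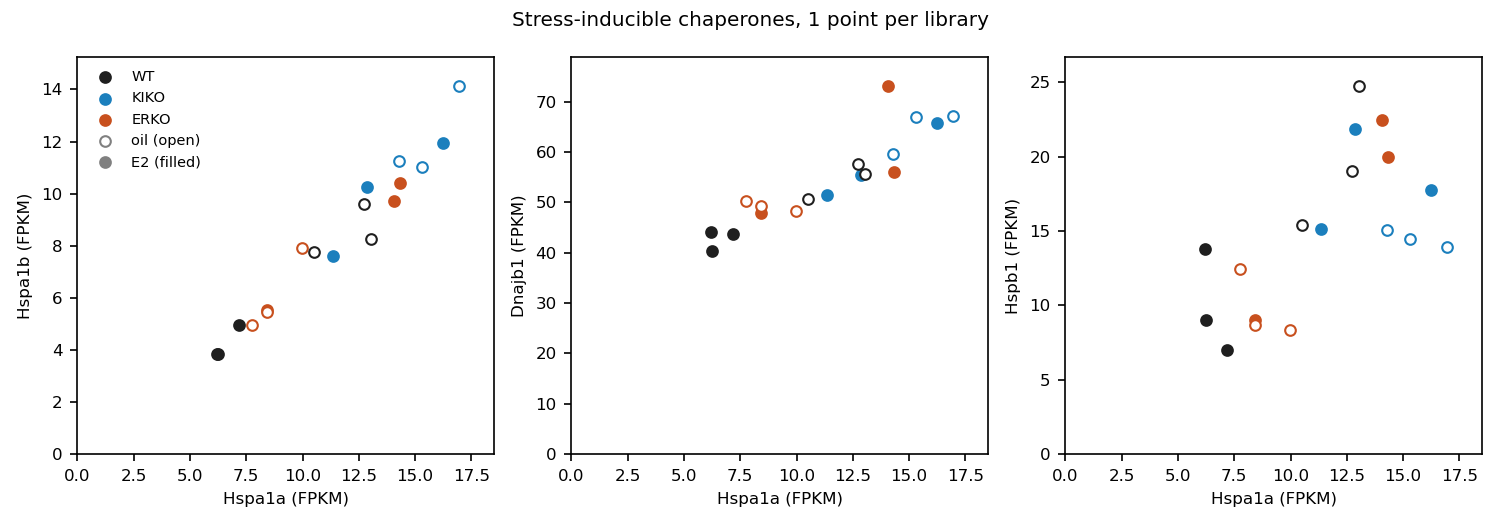
FPKM of Hspa1b, Dnajb1 and Hspb1 (vertical axes) against Hspa1a (horizontal axis), 1 point per library, coloured by genotype, open for oil and filled for E2. WT E2 libraries lie at the low end of each panel. Hspa1b and Dnajb1 rise with Hspa1a (r of log2 values 0.98 and 0.91), and Hspb1 scatters more (0.68). The Hspa1b value may be partly fixed by reads shared with its near-copy Hspa1a.

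The genes most like each chaperone across the libraries differed between Hspa1a, Hspa8 and Hspa5. Among genes averaging 5 FPKM or more, the 5 with the highest correlation to Hspa1a were Inpp5j (0.80), Kiss1, the kisspeptin precursor (0.78), P4ha2 (0.78), Ccdc109a (0.76) and Slc27a2 (0.74), over 18 libraries. For Hspa8 they were Cct5 (0.97), Cct3 (0.97), Psmc3 (0.95), Tcp1 (0.95) and Slc25a3 (0.95), of which Cct5, Cct3 and Tcp1 encode subunits of the cytosolic chaperonin CCT and Psmc3 a proteasome subunit. For Hspa5 they were Cct6a (0.93), Yipf5 (0.87), Pdia3, a disulfide isomerase of the endoplasmic reticulum (0.87), Marcks (0.86) and Gdi2 (0.86). Without ERKO E2 replicate 3 these values were lower for Hspa8 (0.91 for Cct5) and Hspa5 (0.89 for Cct6a) and 0.81 for Inpp5j and 0.77 for Kiss1.

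The wider chaperone network gave no call in any of the 10 comparisons outside the members. Of 12 other genes commonly induced through HSF1, limma called 0 with E2 in WT. The unadjusted p was under 0.05 for 2 of them, as for 10.3% of all genes. Their median change was −0.09 against 0.01 over all genes. Their medians were 0.10 in KIKO E2 and 0.07 in ERKO E2 against WT E2, the latter −0.05 without ERKO E2 replicate 3. Bag3, the cochaperone that links HSP70 to selective autophagy, was nearest to the inducible members, at 12.5, 13.3 and 14.6 FPKM in WT oil and 9.31, 9.12 and 9.80 in WT E2 (−0.47 ± 0.14, adjusted p = 0.168). Chordc1, an HSP90 cochaperone, was at 43.1, 40.5 and 45.0 FPKM in WT E2 and at 59.7, 54.1 and 59.0 in ERKO E2 (0.42 ± 0.10, adjusted p = 0.0532). Neither passed, although Chordc1 did without ERKO E2 replicate 3 (0.40, adjusted p = 0.0265). Of 5 tested small heat shock proteins (8 listed), Cryab, the lens and glial α B-crystallin, had the smallest p, at 55.3 ± 3.76 FPKM in WT oil and 29.1 ± 6.91 in ERKO oil (−0.93 ± 0.31, adjusted p = 0.111).

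Families that serve the constitutive chaperones had small median changes with E2 in WT and larger ones where ERKO libraries entered. For the 9 other HSP70 and HSP110 genes, the 16 J-domain cochaperones, the 11 HSP90 cochaperones and the 10 regulators of HSP70 nucleotide exchange, median changes with E2 in WT lay between −0.05 and 0.01, and no gene was called, with 1, 1, 0 and 1 genes at an unadjusted p under 0.05. Of all genes, 10.3% had an unadjusted p under 0.05 with E2 in WT. The regulators of nucleotide exchange had a median of −0.26 in ERKO oil against WT oil and of 0.41 for the ERKO minus WT response. The 0.41 includes ERKO E2 replicate 3, the library that stood apart, and is not given here without it. In ERKO oil 6 of 10 lay below WT oil without overlap, against 18.4% of all genes. With E2 in ERKO, 11 of 11 HSP90 cochaperones had estimates above 0 (median 0.25), which became 8 of 11 without ERKO E2 replicate 3 (median 0.06) and 8 of 11 under quantile normalization (median 0.10). The 8 CCT chaperonin subunits had 0 calls and 0 unadjusted p under 0.05 with E2 in WT. All 8 had estimates above 0 with E2 in WT (median 0.11), 6 of them without overlap where 9.35% of all genes lay higher, and all 8 lay below WT E2 in KIKO E2 without overlap (median −0.20), where 10.5% of all genes lay lower. Under quantile normalization 8 of 8 stayed above 0 in WT (median 0.09) and 7 of 8 below 0 in KIKO E2 (median −0.08). Estimates above 0 with E2 were not limited to WT. They were found for 8 of 8 in ERKO (median 0.27, and 0.02 without ERKO E2 replicate 3) and for 6 of 8 in KIKO. Under oil 7 of 8 lay below WT in KIKO, 4 of them without overlap, and 6 of 8 in ERKO, 5 without overlap. Of all genes, 9.32% in KIKO oil and 18.4% in ERKO oil lay below WT oil without overlap. Under quantile normalization 5 of 8 lay above WT in ERKO oil. The 22 genes of endoplasmic reticulum folding and the unfolded protein response are the group to which Hspa5 belongs. They had a median of 0.06 with E2 in WT and −0.12 in KIKO E2 against WT E2, with 0 calls. The unadjusted p was under 0.05 for 2 and 3 of them, and for 10.3% and 8.98% of all genes. Dnajb9 (ERdj4), a cochaperone of BiP, was at 26.9, 40.0 and 40.1 FPKM in WT oil and 49.1, 47.8 and 45.5 in WT E2 (0.43 ± 0.13, adjusted p = 0.184), and Hyou1, the HSP110 of the endoplasmic reticulum, had a log2 difference of −0.29 ± 0.09 in KIKO E2 against WT E2 (adjusted p = 0.242). The 9 mitochondrial chaperones had 0 calls and 0 genes at an unadjusted p under 0.05 with E2 in WT (median 0.02), and the 3 tested heat shock factors and binding proteins (5 listed) had 0 calls and 1.

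Stress induces immediate early and glucocorticoid-responsive genes as well as heat shock genes, so both lists were set beside the chaperones. Of 17 immediate early genes, which switch on within minutes of neuronal activity or stress, 0 were called with E2 in WT. Of the 17, 8 had an unadjusted p under 0.05, against 10.3% of all genes (median change −0.34 against 0.01 over all genes). Ier2 was lower in KIKO E2 (−0.87 ± 0.15, adjusted p = 0.00807) and in ERKO E2 (−0.74 ± 0.15, adjusted p = 0.0229) than in WT E2, the reverse of Hspa1a. Npas4, an activity-dependent transcription factor, lay above WT E2 in ERKO E2 (0.65 ± 0.13, adjusted p = 0.0181). In these comparisons 0.944% and 1.3% of all genes were called. In ERKO oil against WT oil, Fos rose from 15.1 ± 1.84 to 25.9 ± 4.82 FPKM (0.73 ± 0.17, adjusted p = 0.0436) while Jun fell from 35.0 ± 2.46 to 25.0 ± 1.09 (−0.47 ± 0.11, adjusted p = 0.0436), where 1.44% of all genes were called. The Ier2 calls held in 26 and 21 of 28 alternative settings and the Npas4 call in 24. The libraries whose removal ended a call were WT E2 replicate 2 and KIKO E2 replicate 2 for Ier2 in KIKO (adjusted p = 0.0590 and 0.0582). They were any WT E2 library and ERKO E2 replicates 1 and 2 for Ier2 in ERKO (adjusted p from 0.0524 to 0.118), and WT E2 replicates 2 and 3 and ERKO E2 replicate 1 for Npas4 (adjusted p from 0.0744 to 0.103). The Fos and Jun calls held in 12 settings each and were lost without any library of WT oil, KIKO oil, KIKO E2 or ERKO oil, or without WT E2 replicate 1 or 2 (adjusted p up to 0.161 for Fos and 0.184 for Jun). Of 9 glucocorticoid-responsive genes, 0 were called with E2 in WT and 0 had an unadjusted p under 0.05 (median 0.12). The part of either list in the chaperone values was not tested.

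**Figure D5:**
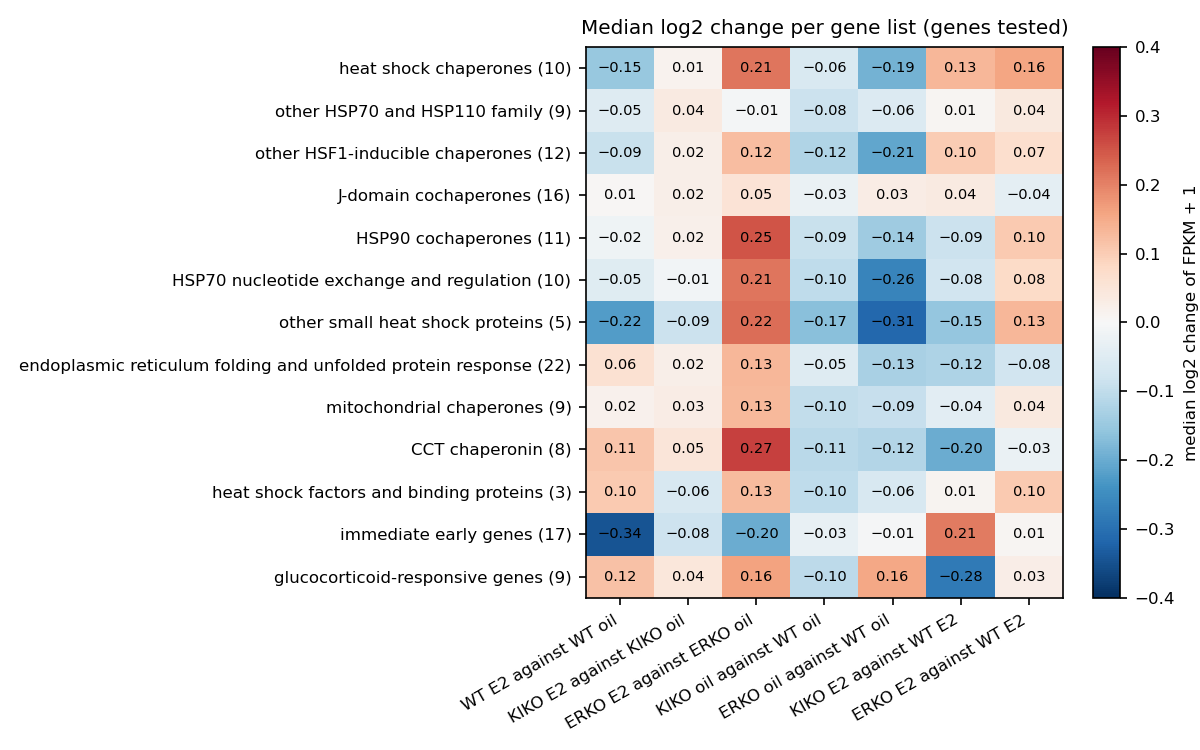
Median log2 change of FPKM + 1 (colour, blue lower and red higher, value printed in each cell) for the 10 members and 12 lists of related genes (rows, with the number of genes tested) in 7 comparisons (columns). The members' medians are −0.15 with E2 in WT and 0.13 and 0.16 in the mutants against WT under E2 (ERKO 0.07 without its replicate 3), and the immediate early genes have the lowest WT median, −0.34.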

How the data were processed

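Each of the 18 libraries came as 1 table of FPKM per gene with lower and upper confidence bounds, which the authors deposited after TopHat2 2.0 and Cuffdiff on mm10, per the submitters' processing notes; the annotation, the scaling between libraries and the treatment of multiply mapped reads are not given in the sources used here. Gene positions in the tables did not lie on the stated build, so only chromosomes are taken from them. Read totals were not used here, and the bounds gave the only measure of depth. Entries with the same symbol were handled as 1 gene, and the 14831 genes averaging 0.5 FPKM or more entered the tests.

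log2(FPKM + 1) was fitted with limma 3.58.1 (R 4.3.3) in 1 model of 6 group means over all 18 libraries with 12 residual degrees of freedom, using moderated variances with trend and robust estimation, 2-sided, for 10 comparisons: E2 against oil in each genotype, each mutant against WT within a treatment, and 3 differences in E2 response. P-values were adjusted by Benjamini-Hochberg over all genes tested, at a threshold of 0.05. A fold change on this scale understates the change of low genes. limma was tested on simulated data first. The members and gene lists were chosen with earlier results of these data known. All members were named, and from each list up to 4 other genes past the threshold or, with none, up to 2 with the smallest p. Alternatives were a pseudocount of 0.1, no filter, median-ratio scaling, quantile normalization, no variance trend, only the groups compared, library weights, the replicate number as a block, the Hspa1a and Hspa1b pair summed, each library left out (list medians also without ERKO E2 replicate 3), and, chosen after seeing the data, small RNA genes left out; the same settings were also run for the named pathway genes. Promoters are from RefSeq, GRCm38.p6.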

Additional observations from a re-analysis of the deposited data

How the results depend on the processing

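Of 2800 single-gene values under 28 alternatives per result, 2637 kept their direction and their side of the threshold, 24 gained a call, 38 lost one (34 of them without a library) and 101 changed sign with no call either way, 30 of these under quantile normalization. The number of members called with E2 in WT (1) became 2 when only the groups compared entered the fit and 0 without the filter on low values; with no filter the adjusted p of Hspa1a was 0.0522. In ERKO oil against WT oil (0) it became 1 with only the groups compared and 3 with library weights. KIKO E2 against WT E2 (2) gave 4 with library weights and 1 with the Hspa1a and Hspa1b pair summed. ERKO E2 against WT E2 (1) gave 0 with only the groups compared, and the ERKO minus WT response (0) gave 1 with library weights. Leaving out a library moved these counts between 0 and 2 in WT, 0 and 3 in ERKO oil against WT oil, 0 and 3 in KIKO E2 against WT E2, 0 and 4 in ERKO E2 against WT E2, and 0 and 3 for the ERKO minus WT response; in the other 5 comparisons it stayed at 0 without any library. The cause was not tested.

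Counts over all genes moved more. Without ERKO E2 replicate 3, genes called went from 119 to 393 with E2 in WT, from 213 to 3290 in ERKO oil against WT oil, from 140 to 590 in KIKO E2 against WT E2 and from 193 to 1277 in ERKO E2 against WT E2; with library weights they were 200, 2909, 1006 and 1283. With only the groups compared they were 71, 1626, 207 and 17. In KIKO oil against WT oil the count went from 2 to 264 without ERKO E2 replicate 3 and 342 with library weights.

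Replicate numbers are shared between groups. Deviations of same-numbered libraries from their group means correlated between −0.26 and 0.37 over 21 pairs, and not all were above 0.1. With 3 libraries a group, these correlations cannot tell whether same-numbered libraries were paired or shared a batch, which the labels do not give. With the replicate block, 0 members were called with E2 in WT (Hspa1a adjusted p = 0.0643) and 0 in ERKO E2 against WT E2 (Hspa1a adjusted p = 0.0569), while KIKO E2 against WT E2 kept 2; over all genes the block gave 96, 66, 111 and 136 calls in WT, ERKO oil against WT oil, KIKO E2 against WT E2 and ERKO E2 against WT E2.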
